A study of Homo sapiens with 9 samples.

Results

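The AP-1 transcription factor family was described here through 8 genes, JUN, JUND, JUNB, FOSL1, FOSL2, FOS, FOSB and ATF3, matched by Ensembl ID among the 60719 genes of the deposited table. AP-1 is a dimer of basic leucine zipper proteins. JUN proteins can pair with each other, whereas FOS proteins need a JUN partner to bind DNA. The dimers bind short sites in promoters and enhancers, and MAP kinase signalling raises both the transcription and the activity of several members. In breast cancer cells of mesenchymal character, FOSL1, also called FRA-1, is known as a prominent member that takes part in motility and invasion.

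The recipient cells were MDA-MB-231, a human breast cancer line without oestrogen receptor, progesterone receptor or HER2 amplification, here with the labelled genotype WT and incubated for 72 h. In the TIS sEV group they received small extracellular vesicles (sEV) from MDA-MB-231 donors in what the series title calls therapy induced senescence, produced with 100 ng/ml of Nocodozole (nocodazole, a microtubule poison) over 72 h and a release of 72 h into medium depleted of exosomes. In the Cont sEV group the vesicles came from donors given DMSO over the same schedule, and in the No sEV group no vesicles were added. The recipients of all 3 groups were in medium that the labels call 5% exo-free during the incubation. All samples are also labelled with medium of 10% fetal bovine serum. Both vesicle groups are labelled with the same particle number. Each group had 3 libraries. As the labels name no separate cultures, a p-value here reflects the scatter among the sequenced samples alone, and that scatter may be technical.

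Values are TPM, relative transcript abundances that are corrected for length and scaled to a sum of 1000000 in every library, so read depth is unknown and no counting interval can be given. In bulk RNA, fewer cells that express a gene and less of its RNA per cell cannot be told apart. Genes that reached 1 TPM in 3 or more libraries were tested, 13879 in all, and these included all 8 members. Markers of the line were as labelled for the most part: VIM was at 2206 to 2299 TPM and CD44 at 428 to 514 TPM, ESR1 was at most 0.220 TPM and PGR at most 0.0502 TPM, while 4 of 8 genes listed as low markers passed the filter, KRT8 at 317 to 348 TPM, ERBB2 at 26.2 to 30.7 TPM, EPCAM at 21.1 to 25.9 TPM and GATA3 at 2.63 to 4.54 TPM. Of 8 leukocyte and endothelial markers, the highest was CD14, at 2.13 to 3.84 TPM. The library TIS sEV replicate 3 stood somewhat apart across the 3386 more abundant genes. Log2 differences of these had an SD of 0.131 to 0.153 in its pairs with each other library. In pairs without it the SD was 0.0777 to 0.132. Estimated library weights, lower where a library scatters more, did not single it out, at 1.07. The lowest weights were those of Cont sEV replicate 2 (0.734) and TIS sEV replicate 2 (0.764). The differences of JUN and JUND with TIS sEV against Cont sEV, and of JUND against No sEV, are also given without TIS sEV replicate 3. Summed levels, shares and correlations of profiles are given with it only.

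The order of the transcript levels was much the same in all 9 libraries. FOSL1 was the most abundant, at 395 to 453 TPM, above 97.8% of tested genes. JUND followed at 113 to 165 TPM, then JUNB at 98.5 to 114 TPM and JUN at 95.1 to 117 TPM. JUNB exceeded JUN in 6 of 9 libraries, all those of Cont sEV and No sEV, and JUN exceeded JUNB in every TIS sEV library. Their ranges over all libraries overlapped, so these neighbours were not separated. JUND was above JUNB within each of the 9 libraries, although their ranges touched. FOSL2, which encodes FRA-2, was at 72.2 to 81.7 TPM, clear of JUN above and ATF3 below. ATF3, a stress-induced member of the ATF branch, was at 18.0 to 24.3 TPM and FOS at 14.0 to 20.9 TPM, with ATF3 higher within every library. FOSB was lowest, at 2.31 to 3.49 TPM. FOS and FOSB are the members best known for brief induction after growth factor stimulation, and both were far below FOSL1.

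**Figure D1:**
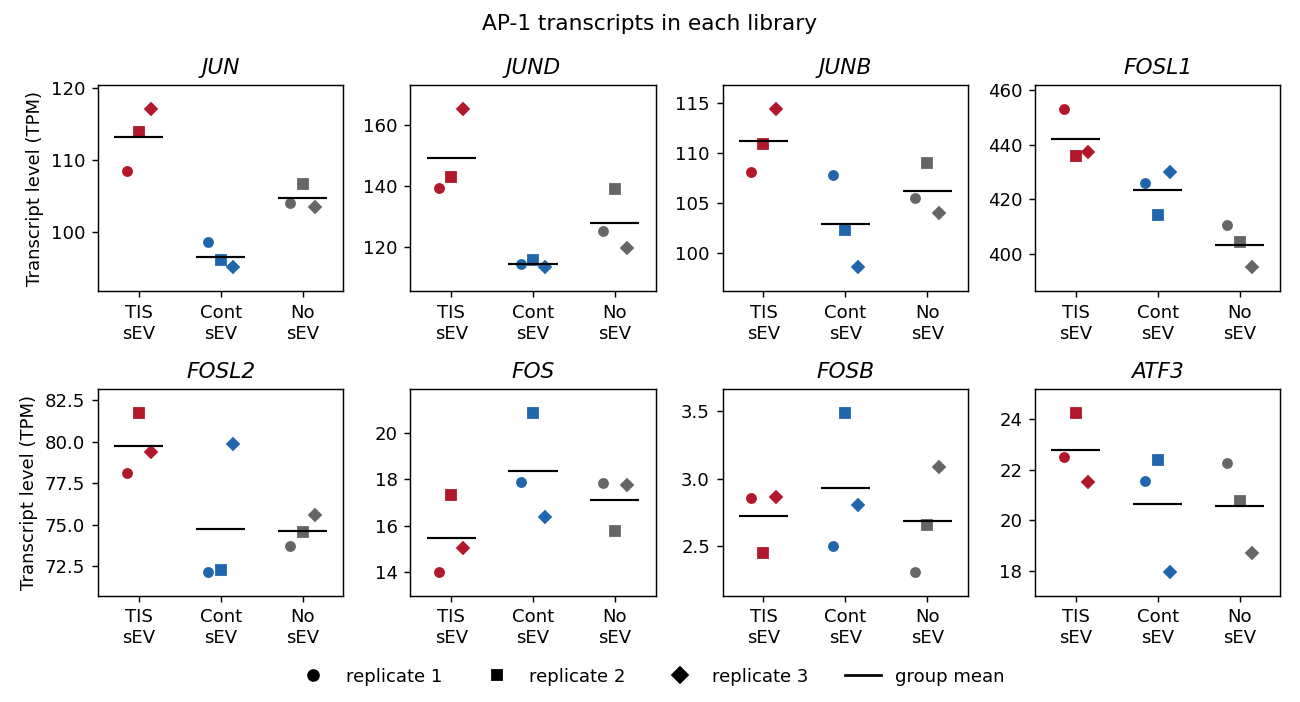
Transcript level in TPM (vertical axes, which do not start at 0) of each AP-1 gene in the TIS sEV, Cont sEV and No sEV libraries; symbols mark replicates and bars the group means (n = 3). For JUN the 3 groups do not overlap, from 108 to 117 TPM with TIS sEV, 95.1 to 98.6 TPM with Cont sEV and 103 to 107 TPM with No sEV.

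With TIS sEV against Cont sEV, JUN, JUND, JUNB and FOSL1 had higher levels in all 3 libraries than in any of the 3 libraries they were set against, but no member passed the test across all genes. JUND had the largest difference and JUN the smallest p. The test was limma's moderated test on log2(TPM + 1), two-sided, with Benjamini-Hochberg adjustment over 13879 genes at 0.05. In this comparison 0 of 8 members passed, where 0.0937% of all tested genes did. At an unadjusted p under 0.05 there were 4 members higher and 1 lower, where 10% of all genes passed in either direction. Groups that did not overlap, with TIS sEV higher, were found for 4 of 8 members and 10.9% of all genes. The mean was higher for 6 of 8 members and for 59.6% of all genes, and the median log2 fold change of the members was 0.10, against 0.02 over all genes. The 8 genes were chosen with results of these data known, so these counts describe them and test nothing.

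JUN encodes c-Jun, the founding partner of the dimer, and lies on chromosome 1 from 58780788 to 58784327 (GRCh38, minus strand) as a protein-coding gene of 1 exon. It was at 108, 114 and 117 TPM with TIS sEV and at 98.6, 96.2 and 95.1 TPM with Cont sEV. The No sEV libraries, at 104, 107 and 103 TPM, lay between them without touching either. The log2 fold change was 0.23 with TIS sEV against Cont sEV (SE 0.03, 95% confidence interval 0.15 to 0.30, limma, adjusted p = 0.0640), the 14th smallest p of all genes, just short of the threshold. With genes of at least 5 TPM only, so that fewer genes were tested, JUN passed at the same fold change (adjusted p = 0.0426). Without TIS sEV replicate 3, its highest library, it was 0.20 (adjusted p = 0.229).

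JUND encodes JunD, a member that is expressed more constantly than JUN in many cell types, and lies on chromosome 19 from 18279760 to 18281622 (minus strand). It was at 139, 143 and 165 TPM with TIS sEV, and at 114, 116 and 113 TPM with Cont sEV. No sEV libraries were at 125, 139 and 119.6 TPM. The highest No sEV library was just below the lowest TIS sEV library, and the highest value of all belonged to TIS sEV replicate 3. The log2 fold change was 0.38 with TIS sEV against Cont sEV (SE 0.07, interval 0.23 to 0.53, limma, adjusted p = 0.101), and 0.30 without TIS sEV replicate 3 (adjusted p = 0.229). The transcripts of JUND have a GC content of 69.7%, above that of 99.7% of tested genes, and with the trends of each library over GC content and length removed its log2 fold change was 0.25 (adjusted p = 0.270).

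JUNB, which encodes the third JUN protein, often described as a weaker activator than c-Jun, lies on chromosome 19 from 12791496 to 12793315 (plus strand). It was at 108, 111 and 114 TPM with TIS sEV and at 107.7, 102 and 98.5 TPM with Cont sEV. The groups were apart by less than 1 TPM, and No sEV libraries at 105, 109 and 104 TPM overlapped both. The log2 fold change was 0.11 (SE 0.04, interval 0.02 to 0.20, limma, adjusted p = 0.378). Of its exon, 259 bases overlap a transcript of HOOK2 on the opposite strand, a gene at a mean of 20.2 TPM, and the sources used here do not say whether the counting used strand, so reads of the 2 genes may have been shared. With GC content and length trends removed the log2 fold change of JUNB was 0.04 (adjusted p = 0.763).

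FOSL1 lies on chromosome 11 from 65892049 to 65900573 (minus strand). It was at 453, 436 and 437 TPM with TIS sEV and at 426, 414 and 429.8 TPM with Cont sEV. The No sEV libraries were lowest, at 411, 404 and 395 TPM, and none of the 3 groups overlapped another. Unlike JUN and JUND, the Cont sEV libraries of FOSL1 were above those with No sEV. The log2 fold change with TIS sEV against Cont sEV was 0.06 (SE 0.03, interval 0.00289 to 0.12, limma, adjusted p = 0.474), and it was 0.03 with GC content and length trends removed (adjusted p = 0.756).

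FOSL2, on chromosome 2 from 28392448 to 28417312, was at 78.1, 81.7 and 79.4 TPM with TIS sEV and at 72.2, 72.3 and 79.8 TPM with Cont sEV. The third Cont sEV library lay within the range of TIS sEV. Its log2 fold change was 0.09 (SE 0.04, limma, adjusted p = 0.5097), and 0.14 without that library (adjusted p = 0.438). FOS, on chromosome 14 from 75278774 to 75282230, had the lower mean with TIS sEV, at 14.0, 17.3 and 15.03 TPM, against 17.9, 20.9 and 16.4 TPM with Cont sEV. These ranges overlapped through 1 library of each group. The log2 fold change of FOS was -0.23 (SE 0.10, interval -0.45 to -0.01, limma, adjusted p = 0.468), opposite in sign to that of JUN, and -0.14 without Cont sEV replicate 2 (adjusted p = 0.708). FOSB, on chromosome 19 from 45467995 to 45475179, was at 2.86, 2.45 and 2.87 TPM with TIS sEV and at 2.498, 3.49 and 2.80 TPM with Cont sEV (log2 fold change -0.07, limma, adjusted p = 0.896). Its difference was well inside the spread between replicates. ATF3, on chromosome 1 from 212565334 to 212620777, was at 22.5, 24.3 and 21.5 TPM with TIS sEV and at 21.5, 22.4 and 18.0 TPM with Cont sEV (log2 fold change 0.14, limma, adjusted p = 0.653), and the groups overlapped. Without Cont sEV replicate 3, the lowest library, the log2 fold change of ATF3 was 0.05 (adjusted p = 0.914).

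In the No sEV libraries FOSL2 was at 73.7, 74.6 and 75.6 TPM, all below the TIS sEV libraries. FOS was at 17.9, 15.8 and 17.7 TPM there, FOSB at 2.31, 2.66 and 3.09 TPM, and ATF3 at 22.3, 20.8 and 18.7 TPM. For these 3 genes the No sEV libraries overlapped both vesicle groups.

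**Figure D2:**
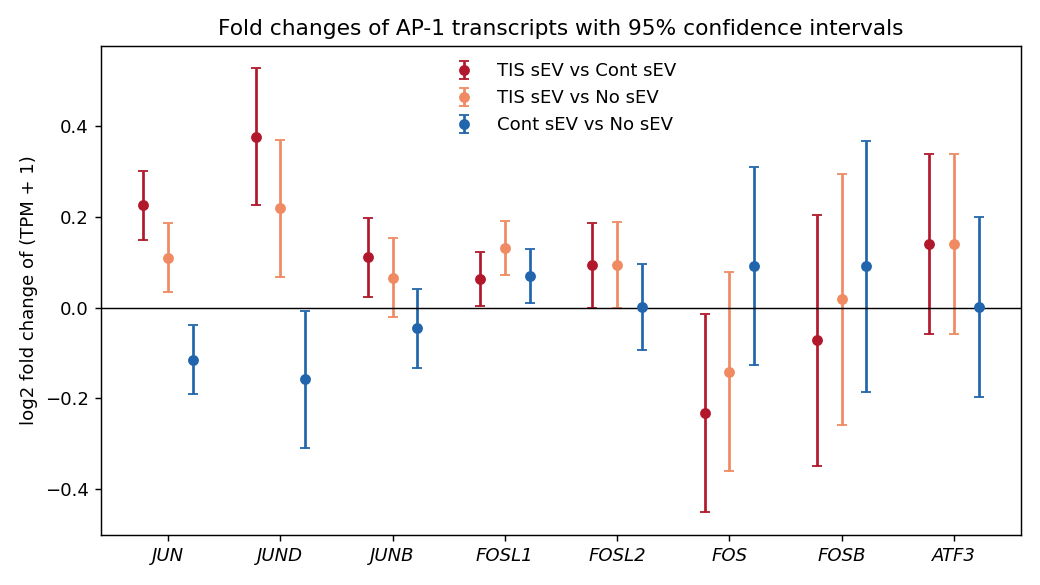
Log2 fold change of TPM + 1 (vertical axis) for each AP-1 gene in the 3 comparisons; points are limma estimates and bars their 95% confidence intervals, not adjusted for the number of genes. With TIS sEV against Cont sEV the interval of JUND runs from 0.23 to 0.53 and that of FOS from -0.45 to -0.01; TIS sEV libraries are shared by the first 2 comparisons, and the other groups by 2 comparisons each.

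The promoters of JUN and JUND are shown because these genes had the smallest p-values of the family between the vesicle groups, and because JUN is known to be regulated through AP-1 type sites of its own promoter. Windows from 250 bases before to 50 bases after an annotated start were read from RefSeq (GRCh38.p14) for 7 of the 8 genes, and FOSL1 had no entry. Capitals mark exact matches, on either strand, to the AP-1 site TGACTCA, the CRE TGACGTCA or the mixed form TGACATCA. The window of JUN is chr1:58783998-58784297 and that of JUND chr19:18281573-18281872, both on the minus strand and written 5′ to 3′ in the direction of transcription.
JUN: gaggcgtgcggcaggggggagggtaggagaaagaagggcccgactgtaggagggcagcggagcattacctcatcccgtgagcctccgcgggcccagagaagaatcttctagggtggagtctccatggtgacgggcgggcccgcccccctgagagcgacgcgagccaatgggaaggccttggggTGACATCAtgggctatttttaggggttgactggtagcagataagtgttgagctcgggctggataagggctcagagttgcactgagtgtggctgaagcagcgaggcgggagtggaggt
JUND: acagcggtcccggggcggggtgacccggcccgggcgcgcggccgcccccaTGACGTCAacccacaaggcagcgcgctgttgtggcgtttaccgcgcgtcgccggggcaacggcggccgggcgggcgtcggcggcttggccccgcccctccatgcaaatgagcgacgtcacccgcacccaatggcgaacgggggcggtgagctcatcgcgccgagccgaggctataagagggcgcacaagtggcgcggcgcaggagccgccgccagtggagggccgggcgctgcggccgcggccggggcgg

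The JUN window held TGACATCA at positions -67 to -60, and the JUND window held TGACGTCA at positions -200 to -193. Position 1 is the start annotated in RefSeq and -1 the base before it. The whole windows of JUN and FOSL2 lie within the gene spans given above, which came from GENCODE 29. For both genes the RefSeq start is therefore downstream of the GENCODE start. Exact matches to 1 of the 3 sequences were found in 4 of the 7 genes, the other two being FOSL2 and ATF3, and in 9.15% of 34943 windows of all genes. TGACTCA was present in 4.96% of all windows, TGACGTCA in 1.84% and TGACATCA in 2.61%. JUNB, FOS and FOSB had no exact match in these windows. The FOSL2 match lies at positions 5 to 11 and that of ATF3 at positions -123 to -116 of the first of its 2 windows, here with 16 bases to each side (chr2:28392846-28392884 and chr1:212565268-212565307, plus strand).
FOSL2: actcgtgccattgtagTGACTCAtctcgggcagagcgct
ATF3: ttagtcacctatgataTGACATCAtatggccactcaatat

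The GC box GGGCGG was matched 6 times in the JUND window and 2 times in that of JUN, and at least once in 44.9% of all windows. The exact TATA sequence TATAAA began at position -31 in JUNB, -33 in FOS and -30 in FOSB, and was not matched in the JUN and JUND windows; 11.6% of all windows hold it. The CArG box, the site of serum response factor, was matched in none of the member windows and in 1.30% of all windows. Sequence further from the start was not searched, so a member may hold this box outside its window. These matches describe letters in a short window and show no binding.

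Against No sEV, the TIS sEV libraries had higher levels of JUN, JUND, FOSL1 and FOSL2 without overlap, and again no member passed over all genes. FOSL1 had the smallest p, at 442 ± 9.61 TPM with TIS sEV and 403 ± 7.90 TPM with No sEV (SD, n = 3 each). Its log2 fold change was 0.13 (SE 0.03, interval 0.07 to 0.19, limma, adjusted p = 0.282), the 30th smallest p of all genes. JUND was at 149 ± 14.1 TPM with TIS sEV and 128 ± 10.03 TPM with No sEV (log2 fold change 0.22, interval 0.07 to 0.37, limma, adjusted p = 0.508), and 0.14 without TIS sEV replicate 3 (adjusted p = 0.588) and 0.28 without No sEV replicate 2 (adjusted p = 0.532). JUN was at 113 ± 4.40 TPM with TIS sEV and 105 ± 1.69 TPM with No sEV (0.11, interval 0.03 to 0.19, limma, adjusted p = 0.508), and 0.07 with GC content and length trends removed (adjusted p = 0.766).

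FOSL2 was at 79.7 ± 1.84 TPM with TIS sEV and 74.6 ± 0.921 TPM with No sEV (log2 fold change 0.09, limma, adjusted p = 0.627). The other members overlapped: JUNB differed by 0.07, ATF3 by 0.14, FOSB by 0.02 and FOS by -0.14 on the log2 scale (limma, adjusted p = 0.710 to 0.986). In this comparison 0 of 8 members and 0.00721% of all genes passed the adjusted threshold, while 3 members, all higher, and 7.97% of all genes had an unadjusted p under 0.05. TIS sEV libraries were apart and higher for 4 of 8 members and 11.3% of all genes. The mean was higher for 7 of 8 members and for 66.7% of all genes, with medians of 0.10 for the members and 0.03 over all genes. As the TIS sEV libraries enter both comparisons, their fold changes are not independent of each other.

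With Cont sEV against No sEV, JUN and JUND had lower levels and FOSL1 higher levels, each without overlap. JUN was at 96.6 ± 1.79 TPM with Cont sEV and 105 ± 1.69 TPM with No sEV (log2 fold change -0.12, SE 0.03, interval -0.19 to -0.04, limma, adjusted p = 0.789). JUND was at 114 ± 1.22 TPM with Cont sEV and 128 ± 10.03 TPM with No sEV (-0.16, interval -0.31 to -0.01, limma, adjusted p = 0.807), and -0.098 without No sEV replicate 2, the highest library of its group. FOSL1 was at 423 ± 8.16 TPM with Cont sEV and 403 ± 7.90 TPM with No sEV (0.07, interval 0.01 to 0.13, limma, adjusted p = 0.807). Of these 8 genes 0 passed the adjusted threshold, as did 0% of all genes, and 3 members and 6.03% of all genes had an unadjusted p under 0.05. Libraries with Cont sEV were apart and lower for 2 members and 4.47% of all genes, and apart and higher for 1 member and 6.72% of all genes. The mean was lower for 3 of 8 members and for 43.5% of all genes. JUNB, FOSL2, FOS, FOSB and ATF3 overlapped between these groups, with log2 fold changes of -0.05 to 0.09. A moderated F test over the 3 groups likewise passed 0 members, with 0.0216% of all genes passing, and JUN had the smallest adjusted p of the family there (0.163), followed by JUND (0.247) and FOSL1 (0.312).

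The summed level of the 8 transcripts was 927 to 953 TPM with TIS sEV, 847 to 860.3 TPM with Cont sEV and 837 to 873 TPM with No sEV. FOSL1 made up the largest share of this pool in every library, 45.9 to 48.9% with TIS sEV, 48.9 to 50.4% with Cont sEV and 46.3 to 47.7% with No sEV. The 3 JUN genes together made up 38.4 to 41.65% of the pool with TIS sEV, 35.9 to 37.2% with Cont sEV and 38.8 to 40.6% with No sEV. Cont sEV libraries had the lowest JUN shares, and TIS sEV and No sEV overlapped. FOS was a minor part throughout, at 1.51 to 1.87% with TIS sEV, 1.92 to 2.46% with Cont sEV and 1.81 to 2.12% with No sEV. The level of JUN was 6.57 to 7.79 times that of FOS with TIS sEV, 4.61 to 5.81 times with Cont sEV and 5.83 to 6.76 times with No sEV. These shares follow from the levels above and were not tested.

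**Figure D3:**
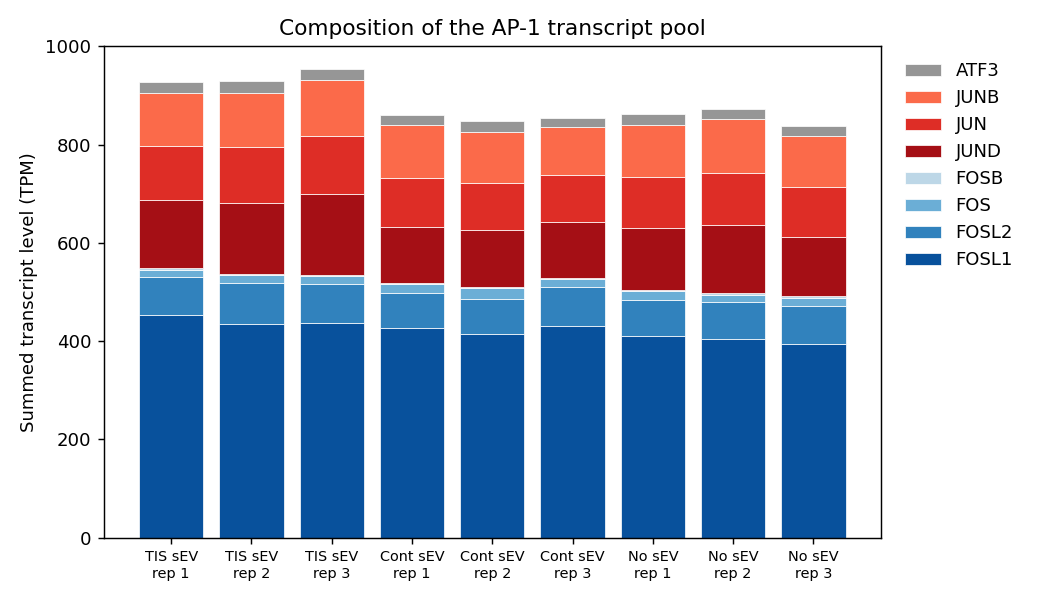
Summed transcript level in TPM (vertical axis, from 0) of the 8 AP-1 genes in each of the 9 libraries, stacked by gene. The TIS sEV libraries sum to 927 to 953 TPM, the Cont sEV libraries to 847 to 860.3 TPM and the No sEV libraries to 837 to 873 TPM, with FOSL1 the largest part in each.

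Among themselves, the members did not follow a single profile over the 9 libraries. JUN and JUND varied together (Pearson's r = 0.95), as did JUN and JUNB (r = 0.89) and JUNB and JUND (r = 0.86). FOSL1 followed JUN loosely (r = 0.35) and FOS ran against JUN (r = -0.57) and JUND (r = -0.64). These are descriptions over 9 libraries in 3 groups that share scaling to 1000000, and the group differences above contribute to them. The genes of closest profile were found by the root mean square difference between centred log2(TPM + 1) values over the 9 libraries, among 10476 non-members averaging 5 TPM or more. For JUN these were H2AX (0.0273), TRMT1L (0.0317) and IER2 (0.0317), where the centred values of JUN itself had a root mean square of 0.0973. For JUND, with 0.175, they were MFSD3 (0.0595), CCDC85B (0.0628) and CEBPD (0.0678), and for JUNB, with 0.0602, RTRAF (0.0185), TSC22D4 (0.0193) and UBE2J2 (0.0215). IER2, an immediate early gene, was at 117 ± 4.81 TPM with TIS sEV, 104 ± 3.42 TPM with Cont sEV and 111 ± 0.603 TPM with No sEV.

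Genes around AP-1 were followed in lists of its partners, inputs, companions and targets. Like the members, these lists were chosen with results of these data known, so their counts describe them and test nothing. Of 22 tested immediate early genes outside the family (28 listed), which are switched on rapidly by the same kinds of signal, 18 averaged higher in TIS sEV libraries than in Cont sEV libraries, where 59.6% of all genes did. Of the 22, 0 passed (0.0937% of all genes passed), and their median log2 fold change was 0.07, against 0.02 over all genes. The genes of smallest p were CCN1, a secreted matrix protein gene (1740 ± 41.6 TPM with TIS sEV and 1559 ± 30.7 TPM with Cont sEV, adjusted p = 0.101), and GADD45A, a growth arrest gene (85.95 ± 3.28 TPM with TIS sEV and 73.7 ± 2.73 TPM with Cont sEV, adjusted p = 0.160). IER2 had an adjusted p of 0.186 and DUSP1, a MAP kinase phosphatase gene, one of 0.227 (148 ± 1.99 TPM with TIS sEV and 138 ± 1.72 TPM with Cont sEV). Against No sEV the median was 0.06, where all genes had 0.03. With TIS sEV, 20 of the 22 averaged higher (66.7% of all genes did), and 0 passed, beside 0.00721% of all genes. Of these, GADD45A and CCN1 had the smallest p (adjusted p = 0.324 and 0.419).

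Of 44 genes described in the literature as AP-1 targets, 41 were tested, and their choice for this list does not depend on AP-1 binding in these cells. The list was made with earlier results of these data known, so its counts describe it and test nothing. The 41 include FOSL1, itself a member of the family, and DUSP1, also counted among the immediate early genes. With TIS sEV against Cont sEV, 28 averaged higher and 13 lower (59.6% of all genes averaged higher), and the median log2 fold change was 0.02, as over all genes to 2 decimals. F3, the tissue factor gene, passed the threshold and was higher (348 ± 10.7 TPM with TIS sEV and 296 ± 4.19 TPM with Cont sEV, log2 fold change 0.23, limma, adjusted p = 0.0252), and 0 other genes of the list passed, so that 1 of 41 was called, beside 0.0937% of all genes. This call was lost in 12 of 21 alternatives, with log2 fold changes of 0.21 to 0.25 and adjusted p-values of 0.0158 to 0.176; among them were a constant prior variance (adjusted p = 0.176) and the fits without TIS sEV replicate 1 or 2, any 1 of the Cont sEV libraries, or No sEV replicate 1 or 3 (adjusted p = 0.0520 to 0.126). IL11, a cytokine gene, was at 356 ± 11.8 TPM with TIS sEV and 307 ± 11.9 TPM with Cont sEV (adjusted p = 0.0737), and PLAT, the tissue plasminogen activator gene, at 907 ± 9.002 TPM with TIS sEV and 803 ± 7.14 TPM with Cont sEV (adjusted p = 0.0779). PTGS2, which encodes the prostaglandin synthase COX-2, was lower, at 142 ± 1.75 TPM with TIS sEV and 161 ± 3.70 TPM with Cont sEV (adjusted p = 0.0894). Targets differed in both directions by their means. Against No sEV, 35 of 41 averaged higher with TIS sEV (66.7% of all genes did), and the median was 0.05, where all genes had 0.03. Of the 41, 0 passed, beside 0.00721% of all genes. F3 and PLAT had the smallest p (limma, adjusted p = 0.130 and 0.172).

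Other basic leucine zipper genes, some of whose proteins can pair or compete with JUN and FOS proteins, were tested for 28 of 33. With TIS sEV against Cont sEV, 20 had a higher and 8 a lower mean (higher for 59.6% of all genes). Of the 28, 0 passed, beside 0.0937% of all genes, and the median log2 fold change of 0.02 matched that of all genes to 2 decimals. CEBPD, a C/EBP factor gene, was at 20.99 ± 1.68 TPM with TIS sEV and 16.1 ± 0.861 TPM with Cont sEV (adjusted p = 0.128). MAFF, a small MAF gene, was at 70.8 ± 0.737 TPM with TIS sEV and 65.3 ± 1.73 TPM with Cont sEV (adjusted p = 0.253), and MAFK and CEBPB had adjusted p-values of 0.287 and 0.294. Against No sEV, 18 of 28 averaged higher (66.7% of all genes did), and the median was 0.03, as over all genes to 2 decimals. Of the 28, 0 passed, beside 0.00721% of all genes. CREM was at 70.2 ± 2.40 TPM with TIS sEV and 61.3 ± 4.55 TPM with No sEV (limma, adjusted p = 0.469).

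MAP kinases and serum response factors act upstream of the family. Of 27 tested genes (29 listed), 21 averaged higher in TIS sEV than in Cont sEV libraries, the median was 0.03 and 0 passed, where over all genes 59.6% averaged higher, the median was 0.02 and 0.0937% passed. MAP2K2, which encodes MEK2, was at 238 ± 7.08 TPM with TIS sEV and 223 ± 4.22 TPM with Cont sEV (adjusted p = 0.378), and MAPK7, which encodes ERK5, was at 18.0 ± 0.689 TPM with TIS sEV and 20.4 ± 1.55 TPM with Cont sEV (adjusted p = 0.451). Against No sEV 18 of 27 averaged higher (66.7% of all genes did), and the median was 0.03, as over all genes to 2 decimals. Of the 27, 0 passed, beside 0.00721% of all genes. MAPK13, a p38 kinase gene, was at 73.7 ± 6.88 TPM with TIS sEV and 63.5 ± 3.68 TPM with No sEV (limma, adjusted p = 0.508). All 18 listed negative regulators were tested, ubiquitin ligase parts, phosphatases and other genes known to restrain JUN, FOS or their kinases, and 12 averaged higher in TIS sEV than in Cont sEV libraries, near the 59.6% of all genes, the median was 0.03 and 0 passed. DUSP1, DUSP4, DUSP5 and DUSP6 are also counted among the targets above. DUSP1 had the smallest p, and DUSP5 was at 158 ± 1.65 TPM with TIS sEV and 149 ± 2.81 TPM with Cont sEV (limma, adjusted p = 0.292). TRIB2 was at a mean of 22.3 TPM with TIS sEV and 26.2 TPM with Cont sEV (limma, adjusted p = 0.366). Against No sEV 14 of 18 averaged higher (66.7% of all genes did), and the median was 0.06, where all genes had 0.03. Of the 18, 0 passed, beside 0.00721% of all genes. DUSP10, a phosphatase of JNK and p38, was at a mean of 63.8 TPM with TIS sEV and 55.4 TPM with No sEV (limma, adjusted p = 0.199).

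**Figure D4:**
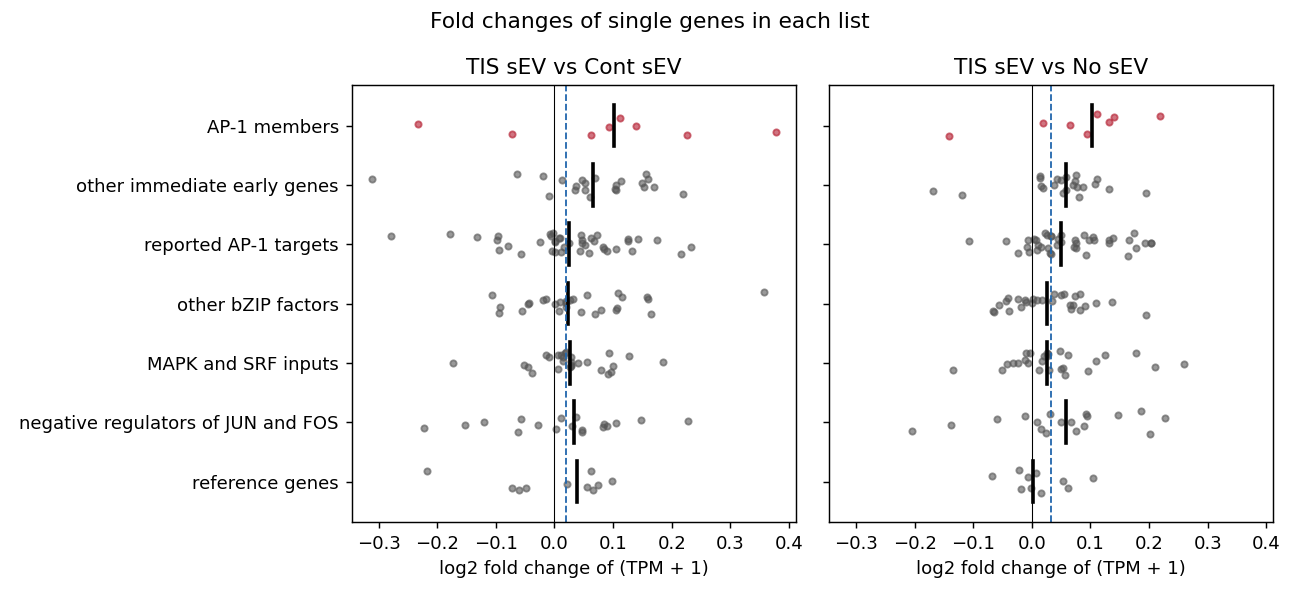
Log2 fold change of TPM + 1 (horizontal axes) of each tested gene in 7 lists, with TIS sEV against Cont sEV (left) and against No sEV (right); points are genes, black bars list medians, and the dashed line the median of all 13879 genes. In the left panel the AP-1 members run from -0.23 for FOS to 0.38 for JUND, with a median of 0.10, and the reported targets centre on 0.02. Genes on several lists, FOSL1 among them, are drawn in each of those lists.

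Other features of the RNA were compared between the groups as well. The 13 mitochondrially encoded mRNAs made up 1.69 to 2.07% of the summed TPM with TIS sEV. Their share was 2.14 to 2.84% with Cont sEV and 2.04 to 2.41% with No sEV. With TIS sEV against Cont sEV, 13 of 13 averaged lower, where 5601 of 13879 tested genes did. Of the 13, 0 were past the adjusted threshold, beside 0.0937% of all genes. With the mitochondrially encoded genes left out and the rest rescaled, the log2 fold change of JUN with TIS sEV against Cont sEV was 0.21 and that of JUND 0.37. Of 10 widely used reference genes, 6 averaged higher in TIS sEV than in Cont sEV libraries, near the 59.6% of all genes. Their median log2 fold change was 0.04, against 0.02 over all genes, and 0 passed, beside 0.0937% of all genes. TBP, which had the smallest p of the 10, was at 22.7 ± 1.38 TPM with TIS sEV and 26.5 ± 0.328 TPM with Cont sEV. Its log2 fold change was -0.22 (limma, adjusted p = 0.2103), near that of JUN in size (0.23) and opposite in sign, and the groups did not overlap. The summed level of the 8 leukocyte and endothelial markers was 4.69 to 5.21 TPM with TIS sEV, 5.43 to 6.02 TPM with Cont sEV and 4.598 to 6.26 TPM with No sEV, and its most abundant genes were CD14, PECAM1 and PTPRC. The part of these differences in the values of JUN and JUND was otherwise not tested. With Cont sEV against No sEV, 0 genes of any of these lists passed, as did 0% of all genes. The median log2 fold change was -0.02 for the other immediate early genes, 0.03 for the reported targets and 0.01 over all genes.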

How the data were processed

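RNA of MDA-MB-231 recipients was sequenced in 9 libraries, and the authors deposited gene-level TPM, the only values used. The submitters' processing notes name Salmon 1.4.0 beside FastQC 0.11.9, Trim Galore 0.6.6 and DESeq2 1.28.0, and GRCh38.p13 as the build; no source used here names the annotation release. Groups came from the labels. Ensembl IDs gave symbols for 99.6% of genes, and GENCODE 29 gave gene spans, exons, GC content and lengths.

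A linear model on log2(TPM + 1), which understates changes of low genes, was fitted to all 9 libraries with limma 3.58.1 (R 4.3.3) and a variance trend, and adjusted for 13879 tested genes per comparison (Benjamini-Hochberg). The procedure was tested on simulated data with independent noise, where recovery was required only of shifts larger than those of the members here. Members, lists and tests were chosen with earlier results of these data known. Besides members, up to 4 genes per list are named for the smallest p with TIS sEV against Cont sEV and up to 2 against No sEV, and the 3 closest profiles for each of 3 members. Alternatives covered the pseudocount, filter, scaling, replicate block, variance model, library weights, GC and length trends, the compared groups alone, and each library left out. Plots used matplotlib 3.10.9.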

Additional observations from a re-analysis of the deposited data

How the results depend on the processing

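No alternative put an AP-1 member past the threshold with TIS sEV against No sEV, with Cont sEV against No sEV or over the 3 groups. With TIS sEV against Cont sEV the count was 1 (JUN) with a minimum of 5 TPM and 0 in the others, leaving out each library included. In that comparison JUN was 0.20 to 0.26 on the log2 scale over 21 alternatives (adjusted p = 0.0426 to 0.263) and JUND 0.25 to 0.42 (adjusted p = 0.0710 to 0.336). Of 501 fold changes of members under alternatives, 481 kept their direction and their side of the threshold and 19 changed sign, all of them for FOSB, FOSL2 or ATF3. The log2 fold change of FOSB with TIS sEV against No sEV was -0.0051 with median-of-ratios scaling, -0.024 with quantile scaling, -0.024 with GC and length trends removed, and -0.056 to 0.096 without single libraries. Without single libraries FOSB was also -0.15 to 0.028 with TIS sEV against Cont sEV and -0.0089 to 0.17 with Cont sEV against No sEV. With Cont sEV against No sEV, FOSL2 was -0.011 with median-of-ratios scaling, -0.0011 with library weights, -0.022 with GC and length trends removed and -0.047 to 0.025 without single libraries, and ATF3 was -0.0104 and -0.015 after median-of-ratios and quantile scaling, -0.021 with GC and length trends removed and -0.063 to 0.093 without single libraries. With TIS sEV against No sEV, the alternatives gave 0.016 to 0.085 for JUNB, 0.052 to 0.11 for FOSL2, -0.22 to -0.078 for FOS and 0.077 to 0.197 for ATF3. F3, whose alternatives were added after seeing the data, kept its call with TIS sEV against Cont sEV in 9 of 21. Over all genes, the 13 calls with TIS sEV against Cont sEV were 2 with a constant prior variance, 6 with GC and length trends removed and 3 with the compared libraries only. They were 2 without TIS sEV replicate 1 or Cont sEV replicate 2, 3 without Cont sEV replicate 3 or No sEV replicate 3, 4 without TIS sEV replicate 2, 7 without TIS sEV replicate 3, 8 without No sEV replicate 1 and at most 13. The 1 call with TIS sEV against No sEV was 9 without a filter, 0 with a constant prior variance, 2 with the compared libraries only and 1 to 2 without single libraries. The 0 calls with Cont sEV against No sEV were 7 without a filter, 1 with a minimum of 5 TPM and 0 to 1 without single libraries. The cause was not tested. Same-numbered libraries had r = -0.057 to 0.14 in 9 pairs, and those of different number -0.19 to 0.21 in 18 pairs. Of 9 libraries, 1 correlated best with its own number in both other groups. No pairing by number was seen, though 3 libraries per group are few for such a check. With the replicate block there were 9, 1 and 0 calls over all genes and 0 of 8 members in each comparison. F3 then had an adjusted p of 0.0578 (limma). FOSB had no value at a minimum of 5 TPM, and the read depth behind such low genes is unknown.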

Other observations

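Members of the family differed in the base composition of their transcripts, which was not used to choose them. The GC content ran from 50.9% for ATF3 to 64.9% for JUNB and 69.7% for JUND, so all 8 members were above the median of 49.4% over tested genes. With each library's trends over GC content and length removed, JUND was 0.25 on the log2 scale with TIS sEV against Cont sEV, against 0.38 before. JUNB was 0.04 against 0.11 before, JUN was 0.21 against 0.23 before, and FOSL1 was 0.03 against 0.06 before.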
